A study of Mus musculus with 16 samples.

Results

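The genes described here are 7 stefin A and cystatin-domain genes of the mouse, Stfa2, Stfa3, Stfa2l1, Cstdc4, Cstdc5, Cstdc6 and Csta3, which are 7 of the 32286 features counted in each of 16 single-cell RNA sequencing libraries. They were chosen by symbol because they were higher in BM neutrophils after IACS-70654 than after vehicle, so their values in that comparison are given as a description, and nothing is read from calls in it. Stefins are small cytosolic proteins of the type 1 cystatin family that bind and block papain-like cysteine proteases such as the cathepsins, which neutrophils carry in lysosomes and granules. Where the human genome has a single stefin A gene, the mouse has a tandem cluster of copies that arose by duplication, and these copies are known as genes of the neutrophil lineage in mouse BM.

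The libraries came from female WT BALB/c mice. Tumor-bearing mice had received a piece of 2208L, a transplantable Trp53-null mammary tumor, into the mammary fat pad at 7 to 8 weeks of age. They were then treated with vehicle or with IACS-70654, an inhibitor of the bromodomains of the histone acetyltransferases CBP and P300. The record of the series gives 7 days of treatment, while the text of the study gives a shorter course for the mice whose BM was sequenced. The ctrl BM came from untreated mice without a tumor. CD45+Ter119- BM cells and Lin-c-Kit+ BM cells were each sequenced as 2 ctrl, 2 vehicle and 2 IACS-70654 libraries, and whole 2208L tumors as 1 library each after vehicle, IACS-70654, anti-PD1 and the combination of both agents. Each sample pooled 3 mice. The record of the series does not say whether the 2 libraries of a group came from separate pools, so p-values measure only the spread between these libraries, which may be technical.

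All 7 genes lie within 298.582 kb of chromosome 16 of the mm10 genome (GRCm38), between positions 36156811 and 36455392. Stfa2l1 (chr16:36156811-36161948), Cstdc4 (chr16:36184212-36188111) and Csta3 (chr16:36210403-36217788) are on the plus strand. Cstdc6 (chr16:36321665-36334332), Cstdc5 (chr16:36359382-36367570), Stfa2 (chr16:36403946-36408363) and Stfa3 (chr16:36450537-36455392) are on the minus strand. Csta2 and Stfa1, further stefin genes that are not among the 7, lie between Csta3 and Cstdc6. All 7 are annotated as protein coding. The copies resemble each other closely: the transcripts of Cstdc5 and Cstdc6 were 95.3% identical, those of Stfa2 and Stfa2l1 95.7%, those of Cstdc5 and Stfa1 97.1%, and those of Cstdc4 and Csta2 95.4%. Of the windows of 50 bases in the last 500 bases of each transcript, 41.5% in Cstdc5, 35.6% in Cstdc4, 33.7% in Cstdc6, 16.8% in Stfa2l1 and 14.7% in Stfa2 occurred unchanged in another gene of the cluster, and none of those in Stfa3 or Csta3 did. A 3' read that matches several genes equally is not counted, so the levels of Cstdc5, Cstdc4 and Cstdc6 in particular may be too low and their split is uncertain, while Stfa3 and Csta3 shared no such window with the other 9 genes compared.

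The start sites of the cluster also share sequence. RefSeq promoters (GRCm38.p6; 250 bases before to 50 bases after the start) were at hand for 6 of the 7 genes, all but Cstdc6. Their 250 bases before the start were 71.2% to 92.3% identical in pairs. All 6 promoters held the word ACCTTTAAAACCC, found in 9 of 32851 mouse promoters (0.0274%). The other holders were Stfa1, Cstdc3 and Gm7260. The word was picked after the promoters had been compared, as one of the longest they all share. The last 100 bases before each start are shown because they hold the word these genes share, which is in capitals (12 of its 13 letters for Cstdc5, where the last letter is the first transcribed base).
Stfa2 (chr16:36408364-36408463, minus strand): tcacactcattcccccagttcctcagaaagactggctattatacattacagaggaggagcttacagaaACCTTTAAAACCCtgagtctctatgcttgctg
Stfa3 (chr16:36455393-36455492, minus strand): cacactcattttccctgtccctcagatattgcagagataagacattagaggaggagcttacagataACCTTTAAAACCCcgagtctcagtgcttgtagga
Stfa2l1 (chr16:36156711-36156810, plus strand): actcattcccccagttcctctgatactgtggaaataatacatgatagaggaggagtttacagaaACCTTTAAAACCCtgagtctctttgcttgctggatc
Cstdc4 (chr16:36184112-36184211, plus strand): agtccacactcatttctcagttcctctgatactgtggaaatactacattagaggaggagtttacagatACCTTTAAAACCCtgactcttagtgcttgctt
Cstdc5 (chr16:36367571-36367670, minus strand): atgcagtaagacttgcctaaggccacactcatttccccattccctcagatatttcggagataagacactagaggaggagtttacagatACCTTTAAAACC
Csta3 (chr16:36210303-36210402, plus strand): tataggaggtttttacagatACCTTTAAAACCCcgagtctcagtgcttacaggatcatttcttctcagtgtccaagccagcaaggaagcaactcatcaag

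Motifs known from myeloid promoters were searched on both strands of the 250 bases before the start in the 6 promoters. The C/EBP core TTNNGNAA was in 5 of 6 (36.8% of all promoters), GAGGAA, an extended PU.1 motif, in 5 of 6 (23.3%), and GGAA, which GAGGAA contains, in 6 of 6 (93.4%). GATAA was in 3 of 6 (22.6%) and the NF-kB core motif in 2 of 6 (45.8%). The TATA box TATAAA (12.4%), the AP-1 site TGANTCA (6.75%) and the CRE half-site TGACG (17.8%) were in 0 of 6. A match is a run of letters in this window and no evidence of binding. The 6 promoters are close copies of each other, so their counts are not counts of separate promoters, and no enrichment is read from them.

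The CD45+ libraries held 4394 to 6154 cells after filtering and 27006941 to 51869474 unique molecular identifiers (UMIs) in those cells, the c-Kit+ libraries 2836 to 7517 cells and the tumors 1974 to 5064 cells. No cell barcode was shared between libraries of a sort. Levels are given as CPM, the UMIs of a gene over all UMIs of the same cell class in the same library, scaled to 1e6. Each UMI stands for a transcript end, so these levels do not scale with transcript length. Cells were clustered again here and named from fixed markers. Neutrophils were divided into stages, from azurophil-high precursors (Mpo, Elane) through cycling preNeu (Mki67, Top2a), immature neutrophils (Camp, Ltf, Ngp) and mature neutrophils (Cxcr2, Retnlg) to Il1b-high neutrophils. Different clusters held most of the immature stage in each group (989 of 1042 ctrl cells, 1073 of 1199 vehicle cells and 1257 of 1353 IACS-70654 cells were each in a cluster of their own), and 549 of 687 IACS-70654 preNeu were in another cluster than most ctrl and vehicle preNeu. A cluster of S-phase cells, with 214 ctrl, 314 vehicle and 4 IACS-70654 cells, was left unnamed.

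Stefin A and cystatin-domain transcripts were neutrophil transcripts in BM. Of all UMIs of the 7 genes, 88.8% to 98.3% lay in neutrophils, which gave 59.4% to 84.2% of all UMIs. Together the 7 genes took 0.133% and 0.125% of all UMIs in the ctrl libraries, 0.264% and 0.267% in the vehicle libraries, and 1.16% and 1.18% in the IACS-70654 libraries. The 3 groups did not overlap, which for IACS-70654 against vehicle follows in part from the choice of the genes. In mature neutrophils, the sum of the 7 genes was at 4405 and 4451 CPM in ctrl, at 5478 and 5467 CPM in vehicle and, with IACS-70654, at 22361 and 22862 CPM. Monocytes were at 219 and 249 CPM, 416 and 389 CPM, and 725 and 879 CPM, and cells of the stem or progenitor class at 155 to 1367 CPM.

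B cells, which are not known to use these genes, were taken as the background. They held 598 and 862 CPM in ctrl, 809 and 696 CPM in vehicle, and, after IACS-70654, 3582 and 2934 CPM. Per cell this came to 1.95 and 3.02 UMIs in ctrl, 2.88 and 2.59 in vehicle, and, after IACS-70654, 19.0 and 13.4. The ctrl and vehicle libraries thus overlapped in B cells, and the IACS-70654 libraries lay above both. S100a8, an abundant calprotectin subunit of neutrophils, reached 10.7% to 21.2% of its neutrophil level in B cells, and Stfa3 20.8% to 80.7%. B cells are shallow, with a median of 2796.5 to 4201.5 UMIs. Whether these UMIs came from free RNA, from neutrophils sharing a droplet or from the B cells was not tested. Azurophil-high precursors held 2.44 and 3.42 UMIs of the 7 genes per cell in ctrl and 3.60 and 4.41 in vehicle libraries, close to the B cells, and 27.6 and 36.4 in IACS-70654 libraries. No expression outside neutrophils is read from these values.

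**Figure D1:**
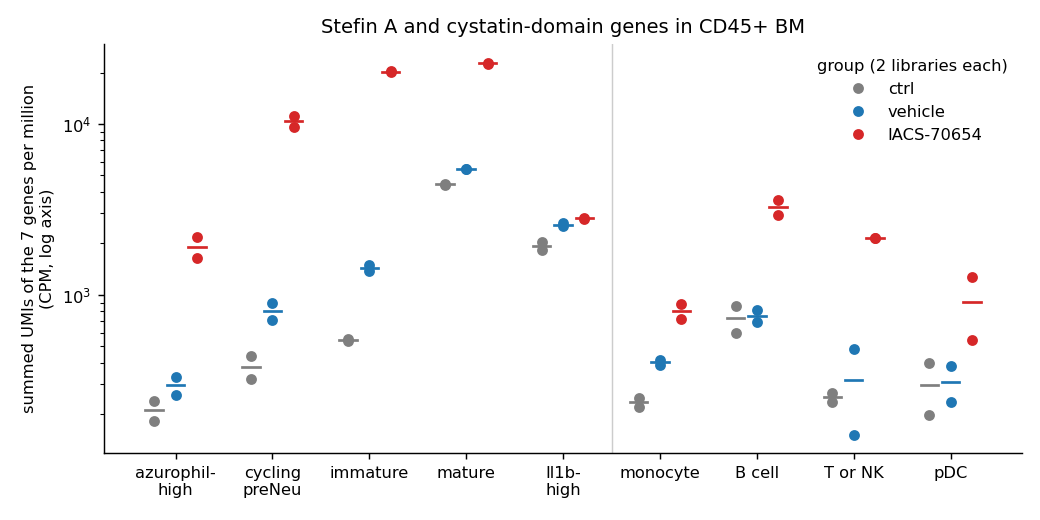
Summed CPM of the 7 genes (log axis) in neutrophil stages (left of the line) and other cell classes of CD45+ BM. Points are libraries and bars are means of the 2 libraries of a group. IACS-70654 libraries lay above vehicle in every class shown, by the most in immature neutrophils (20367 and 20039 CPM against 1376 and 1499 CPM), and by the least in Il1b-high neutrophils (2798 and 2794 CPM against 2629 and 2521 CPM), a class that depended on the clustering.

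In ctrl BM the sum of the 7 genes was highest at the mature stage. Csta3 had a higher mean in Il1b-high than in mature neutrophils (55.0 against 21.2 CPM). Stfa2l1 was at means of 804 and 854 CPM there, and the libraries of these stages overlapped for both genes. The sum rose from 538 and 547 CPM in immature neutrophils to 4405 and 4451 CPM in mature neutrophils, and stood at 437 and 319 CPM in cycling preNeu. Cstdc4 was highest among the 7 in mature ctrl neutrophils, at 1336 and 1352 CPM, followed by Cstdc5 at 1322 and 1291 CPM, and the libraries of this pair of genes did not overlap. Stfa2l1 was at 822 and 887 CPM. Stfa2 (342 and 345 CPM) and Stfa3 (327 and 313 CPM) were lower and close to each other, Cstdc6 (236 and 241 CPM) came next, and Csta3 was at 20.9 and 21.5 CPM. From the immature to the mature stage of ctrl BM, Cstdc4 was 14.8-fold and Stfa2l1 14.3-fold higher, and Stfa2 8.47-fold and Stfa3 4.96-fold. Csta3 in immature ctrl neutrophils rested on 1 and 4 UMIs. The immature ctrl level of the 7 genes (3.22 and 3.34 UMIs per cell) was close to that of ctrl B cells (1.95 and 3.02), and no order of the genes is read from these folds.

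**Figure D2:**
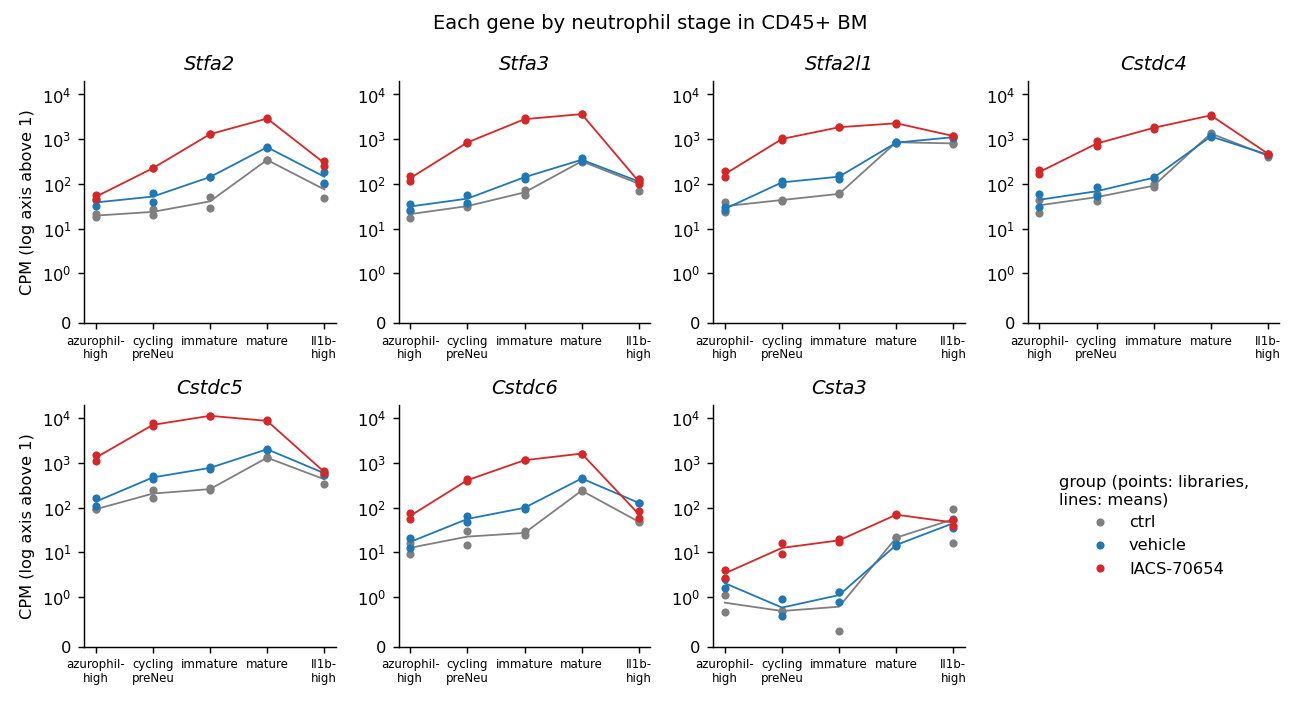
CPM of each gene (log axis above 1) by neutrophil stage in CD45+ BM. Points are libraries and lines join the means of 2 libraries per group. In ctrl and vehicle the lines rise between the immature and the mature stage, whereas with IACS-70654 Cstdc5 was already at 6542 and 7633 CPM in cycling preNeu.

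The comparison of vehicle with ctrl BM sets mice with a growing 2208L tumor against mice without a tumor. The vehicle mice had also received the implantation and the oral vehicle, and the ctrl mice were untreated. Effects of the tumor, the surgery and the oral vehicle cannot be told apart here. Stfa2, Cstdc6 and Cstdc5 were higher in tumor-bearing mice at the cycling, immature and mature stages. Their log2 changes were larger in value in immature than in mature neutrophils, a difference between stages that was not tested. The vehicle libraries also entered the choice of the genes, so these tests are not fully independent of it. Calls rest on the quasi-likelihood F test of edgeR, with a log2 change beyond 0.5 in either direction and a Benjamini-Hochberg p, adjusted over all genes tested at a stage, below 0.01. In immature neutrophils 6 of the 7 genes were called higher, where 2.46% of all 9792 genes tested were. In cycling preNeu 6 of 7 were called higher (2.15% of all genes), in mature neutrophils 3 of 7 (5.05%), in azurophil-high precursors 1 of the 6 tested (0.933%) and in Il1b-high neutrophils 0 of 7 (0.593%). Csta3 was not tested in azurophil-high precursors, and no gene of the 7 was called lower at any stage. The median log2 change of the 7 was 1.53 in immature and 0.29 in mature neutrophils, where that of all genes tested was -0.0017 and -0.0019.

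Cstdc5, the highest of the 7 at the immature stage, was at 250 and 268 CPM in immature ctrl neutrophils and 723 and 821 CPM in immature vehicle neutrophils. The groups did not overlap, and the log2 change was 1.82 ± 0.04 (SE; edgeR adjusted p = 4.03e-47, n = 2 libraries per group). Stfa2 was at 52.0 and 29.2 CPM in ctrl and 140 and 143 CPM in vehicle, and its log2 change was 2.04 ± 0.09 (edgeR adjusted p = 1.23e-29). Cstdc6, at 24.3 and 29.8 CPM in ctrl and 95.2 and 102 CPM in vehicle, had a log2 change of 2.11 ± 0.10 (edgeR adjusted p = 1.58e-29). Both vehicle libraries lay above both ctrl libraries for each of the 3. The ctrl values lay near those of ctrl B cells, which held 262 and 379 CPM of Cstdc5, 59.9 and 58.6 CPM of Stfa2 and 23.4 and 48.8 CPM of Cstdc6. Per immature cell the 7 genes gave 3.22 and 3.34 UMIs in ctrl and 11.3 and 12.3 in vehicle, against 1.95 to 3.02 in the B cells of those libraries. The part of this background in the sizes of the immature changes was not tested, and no order of the genes is read from them. Stfa2l1 (log2 change 1.53 ± 0.08), Stfa3 (1.36 ± 0.08) and Cstdc4 (0.83 ± 0.07) were called as well. Cstdc4 lost its call when neutrophils were clustered without centring each library (0.31). Csta3, with 1 to 7 UMIs per library, had a log2 change of 0.72 ± 0.73 and was not called. The immature stage of each group was held by its own cluster. Mean sums in ctrl and vehicle were 413 and 788 CPM in the cluster of most ctrl cells (989 and 30 cells). They were 239 and 1374 CPM in that of most vehicle cells (9 and 1073 cells). In that of most IACS-70654 cells they were 278 and 426 CPM (12 and 26 cells), and in a further immature cluster 3156 and 2539 CPM (32 and 70 cells). The summed level of immature markers in all immature neutrophils was 116999 and 117562 CPM in ctrl and 112152 and 111904 CPM in vehicle. That of mature markers was 3559 and 3546 CPM in ctrl and 3898 and 3968 CPM in vehicle. The groups overlapped in neither sum, and the part of these differences in the changes of the 7 genes was not tested.

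In mature neutrophils, the 7 genes parted. Stfa2 was at 342 and 345 CPM in ctrl and 677 and 644 CPM in vehicle, a log2 change of 1.12 ± 0.03 (edgeR adjusted p = 8.73e-213). Cstdc6 changed by 1.08 ± 0.03 and Cstdc5 by 0.80 ± 0.02 on the log2 scale, and both were called. Cstdc4 was at 1336 and 1352 CPM in ctrl and 1136 and 1164 CPM in vehicle, and its log2 change of -0.050 ± 0.025 was not called. Stfa2l1 (0.15 ± 0.03), Stfa3 (0.29 ± 0.03) and Csta3 (-0.38 ± 0.12) also stayed under the threshold of 0.5. With scaling by library totals in place of TMM, the median of all genes in this comparison fell by 0.17 on the log2 scale (by 0.24 in immature neutrophils and 0.15 in cycling preNeu), and the change of Stfa2l1 turned to -0.029. TMM changes are therefore relative to the bulk of genes. In cycling preNeu, Stfa2l1 (1.45 ± 0.10), Cstdc6 (1.44 ± 0.15), Cstdc5 (1.34 ± 0.09), Stfa2 (1.25 ± 0.15), Stfa3 (0.68 ± 0.13) and Cstdc4 (0.56 ± 0.15) were called. These cells held 5.14 and 3.95 UMIs of the 7 genes per cell in ctrl and 12.0 and 9.71 in vehicle, against 1.95 to 3.02 in the B cells of those libraries. In the cluster of most ctrl and vehicle preNeu, the mean sums were 249 CPM in ctrl (571 cells) and 634 CPM in vehicle (795 cells). In that of most IACS-70654 preNeu they were 3288 CPM (26 cells) and 2598 CPM (76 cells), and in the remaining preNeu cluster 306 CPM (97 cells) and 895 CPM (194 cells). The call of Cstdc4 here was lost without the first vehicle library (0.20) or the second ctrl library (0.34), and that of Stfa3 without the first vehicle library (0.42). Cstdc4 also lost it with library totals (0.41), without centring (0.46) and with the replicate number as a block (0.56). DESeq2 did not call Cstdc4, Stfa3 and Cstdc6 at this stage. Without each library in turn the change of Cstdc6 at this stage ranged from 1.01 to 2.07. Immature markers in cycling preNeu were at 110383 and 108990 CPM in ctrl and 100689 and 103825 CPM in vehicle, and mature markers in mature neutrophils at 33230 and 34645 CPM in ctrl and 31553 and 31243 CPM in vehicle. The groups overlapped in neither, and the part of this in the changes of the 7 genes was not tested. Stfa2 in azurophil-high precursors (0.97 ± 0.23) was called at a level close to that of B cells, and lost the call in DESeq2 (0.98) and without the first (0.87) or second ctrl library (1.12), the first vehicle library (0.73) or the second IACS-70654 library (0.98).

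**Figure D3:**
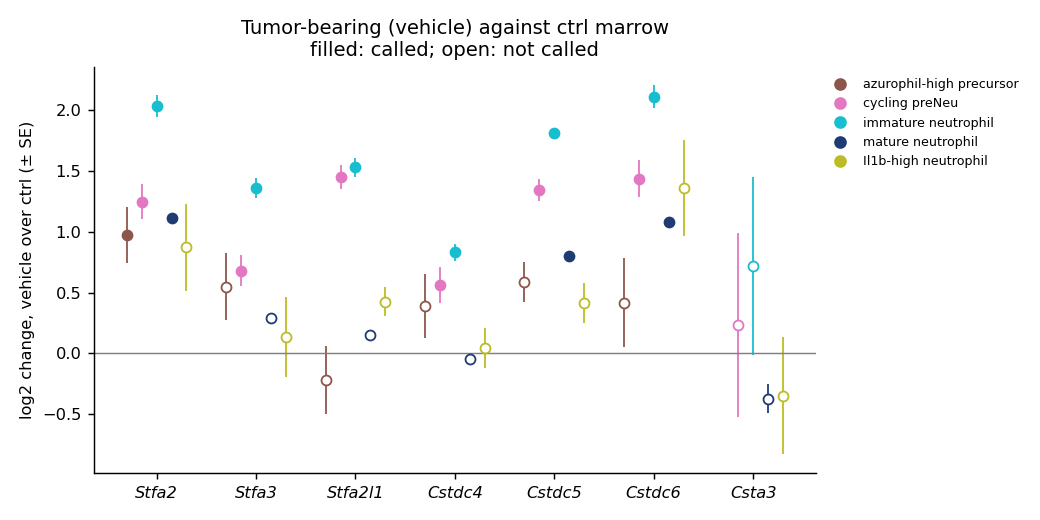
Log2 change of each gene, vehicle over ctrl, with its SE, by neutrophil stage (colors); filled points were called by edgeR's quasi-likelihood test and open points were not. Immature neutrophils hold the highest point for each of the 7 genes, from 0.72 for Csta3 to 2.11 for Cstdc6. The point of Csta3 rests on few UMIs and ranged from 0.021 to 2.01 without each library in turn.

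With IACS-70654, the sum of the 7 genes was above the sums of mature ctrl and vehicle cells already in cycling and immature cells. This did not hold for each gene, since the mean levels of Stfa2 (224 CPM), Cstdc4 (796 CPM) and Csta3 (12.5 CPM) in cycling cells lay below their means in mature ctrl and vehicle cells, and that of Cstdc6 (410 CPM) below its mean in mature vehicle cells (448 CPM). In immature neutrophils the sum was 14.1-fold the vehicle level (1376 and 1499 CPM against 20367 and 20039 CPM) and 37.2-fold the ctrl level, which lay near that of B cells. In mature neutrophils it was 4.13-fold, in cycling preNeu 12.9-fold and in azurophil-high precursors 6.45-fold the vehicle level. In the cluster of most IACS-70654 preNeu, the means were 2598 CPM in vehicle (76 cells) and 10435 CPM with IACS-70654 (549 cells). In that of most vehicle preNeu they were 634 CPM (795 cells) and 6106 CPM (26 cells). In the remaining preNeu cluster they were 895 CPM (194 cells) and 11107 CPM (112 cells). The part of this cluster mix in the 12.9-fold ratio was not tested. In B cells, the background, the sum was 4.33-fold and in T or NK cells 6.79-fold the vehicle level. All ratios to vehicle given for BM are of CPM, without TMM scaling. With library totals in place of TMM, the median log2 change of all genes, IACS-70654 over vehicle, was higher by 0.24 in mature neutrophils. It was higher by 0.25 in immature neutrophils and by 0.22 in cycling preNeu. With IACS-70654 the mean of azurophil-high precursors (1907 CPM) lay below that of B cells (3258 CPM). The part of the background in the ratio of azurophil-high precursors was not tested. The shares of genes called higher than vehicle were 8.61% in immature and 11.5% in mature neutrophils, 4.43% in cycling preNeu and 1.95% in azurophil-high precursors. Since this contrast chose the genes, their place among these is not read. The vehicle libraries enter the comparisons with ctrl and with IACS-70654 alike.

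Cstdc5 held the largest part of the sum in vehicle and IACS-70654 libraries at the cycling, immature and mature stages. In cycling preNeu it was at 507 and 437 CPM in vehicle and 6542 and 7633 CPM in IACS-70654 libraries. In immature neutrophils it was at 723 and 821 CPM against 11228 and 11362 CPM, and in mature neutrophils at 2043 and 1990 CPM against 8527 and 8888 CPM. Its level with IACS-70654 was thus higher in immature than in mature cells, the reverse of its order in ctrl and vehicle.

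Stfa3 had the highest ratio to vehicle of the 7 at the immature stage (19.9-fold; 154 and 128 CPM against 2919 and 2682 CPM), at the cycling stage (18.1-fold) and at the mature stage (10.5-fold; 323 and 370 CPM against 3598 and 3681 CPM). In mature neutrophils it moved from the second lowest of the 7 in vehicle to the second highest with IACS-70654. Its vehicle and ctrl levels at that stage were 346 ± 33.0 and 320 ± 10.4 CPM (SD, n = 2) and overlapped.

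Stfa2 was at 140 and 143 CPM in immature vehicle neutrophils and 1305 and 1283 CPM with IACS-70654, and at 677 and 644 CPM against 2855 and 2940 CPM in mature neutrophils. Stfa2l1, its near copy, was at 129 and 162 CPM against 1856 and 1846 CPM in immature and at 823 and 850 CPM against 2198 and 2343 CPM in mature neutrophils. The ratio of Stfa2l1 to vehicle at the mature stage, 2.71-fold, was the lowest of the 7.

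Cstdc4 was at 134 and 140 CPM against 1884 and 1707 CPM in immature and at 1136 and 1164 CPM against 3495 and 3335 CPM in mature neutrophils. Cstdc6 was at 95.2 and 102 CPM against 1157 and 1141 CPM, and at 461 and 435 CPM against 1620 and 1606 CPM. Csta3, the lowest of the 7, was at 0.900 and 1.30 CPM against 19.8 and 17.1 CPM in immature cells and at 15.4 and 13.7 CPM against 70.2 and 68.4 CPM in mature cells. For all 3, every IACS-70654 library lay above every vehicle library at both stages. This contrast chose the genes, so nothing is read from that order.

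The stage markers bear on these values. In immature neutrophils of the IACS-70654 libraries the summed level of immature markers was 108698 and 109692 CPM, and that of mature markers 2866 and 3122 CPM, lower than in vehicle (3898 and 3968 CPM). Azurophil markers in those cells were higher, at 746 and 705 CPM against 294 and 278 CPM. In cycling preNeu, azurophil markers were at 4696 and 4333 CPM after IACS-70654 against 2043 and 1619 CPM after vehicle, and immature markers at 80426 and 79169 CPM against 100689 and 103825 CPM. The part of these differences in the levels of the 7 genes was not tested. Over all neutrophils taken as a single class, the sum was at 1970 and 1877 CPM in ctrl, 3119 and 3102 CPM in vehicle and 14992 and 15307 CPM in IACS-70654 libraries, and Stfa3 (10.7-fold), Cstdc5 (5.74-fold) and Csta3 (4.37-fold) led the ratios to vehicle. Within the mature stage, the Cd55-rich cluster was the lowest of the 4 in ctrl (1731 and 1849 CPM) and in vehicle (2990 and 3044 CPM), and stood at 21573 and 23666 CPM with IACS-70654, in the range of the other 3 mature clusters (16563 to 26343 CPM).

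In Il1b-high neutrophils, a class rich in Il1b, Nfkbia and Ptgs2, the sum was at 1824 and 2049 CPM in ctrl, 2629 and 2521 CPM in vehicle and 2798 and 2794 CPM in IACS-70654 libraries, a ratio to vehicle of 1.09. Stfa2l1 was the leading copy there, at 780 and 828 CPM, 1073 and 1145 CPM, and 1166 and 1186 CPM. Stfa3 was at 70.2 and 131 CPM, 112 and 114 CPM, and 127 and 98.1 CPM, so its groups overlapped. Stfa2 was at 184 and 105 CPM in vehicle and 331 and 254 CPM with IACS-70654, and Cstdc6 at 127 and 127 CPM against 59.8 and 81.7 CPM, the only gene of the 7 whose IACS-70654 libraries lay below vehicle at any stage. This stage depended on how the cells were clustered. When neutrophils were clustered without centring each library, the log2 change of Cstdc6 in the Il1b-high class was 1.19 in place of -0.85 and that of Stfa3 2.12 in place of -0.06. The class had 2.78% of all 6074 genes called higher and 4.38% called lower after IACS-70654 than after vehicle, and since this contrast chose the genes, nothing is read from their place among these. The class held 151 ctrl, 627 vehicle and 556 IACS-70654 cells of low depth (a median of 1534.5 to 2089.5 UMIs).

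Single cells gave the same order. After thinning each cell to 1000 UMIs, a UMI of any of the 7 genes was seen in 74.1% and 73.2% of mature neutrophils in ctrl, 76.5% and 76.1% in vehicle, and, after IACS-70654, 95.2% and 94.4%. Without thinning the mean shares were 91.8%, 93.9% and 98.2%. Among immature neutrophils the shares were 27.8% and 26.9%, 33.5% and 36.7%, and 88.0% and 87.5%. Cycling preNeu gave 22.4% and 20.6%, 33.1% and 29.2%, and 77.9% and 80.2%. B cells gave 30.5% and 31.9%, 31.7% and 30.8%, and 25.0% and 39.4% (median depths 2796.5 to 4201.5 UMIs, against 5923 to 9638 in immature and 11596 to 15413 in cycling cells). The shares of ctrl and vehicle cells at the immature and cycling stages therefore lay near or under those of B cells, with immature vehicle cells slightly above them, and expression there is not read from these shares.

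The genes were also counted together in single mature neutrophils. The median number of the 7 with a UMI per thinned cell was 1 in both ctrl libraries, 2 in both vehicle libraries and 4 in both IACS-70654 libraries. At least 4 of the 7 were seen in 11.1% and 10.6% of ctrl cells, 17.4% and 17.7% of vehicle cells and 58.0% and 58.0% of IACS-70654 cells. In immature neutrophils at least 4 were seen in 0.190% and 0.404%, 2.82% and 2.62%, and 43.6% and 43.8%. In B cells at least 4 were seen in 0.172% and 0.166% of ctrl cells, at most 0.699% of vehicle cells, and 9.09% and 5.32% of IACS-70654 cells. Both IACS-70654 libraries thus had a larger share of such immature cells than any ctrl or vehicle library had of mature ones.

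The make-up of the family shifted with the stage. Cstdc5 made up more of the UMIs of the 7 genes early (in IACS-70654 libraries about as much in azurophil-high precursors as in cycling preNeu) and less at the mature stage, where Cstdc4 and, with IACS-70654, Stfa3 and Stfa2 took larger parts. In ctrl, Cstdc5 held 91.6 of 210 CPM in azurophil-high precursors, 259 of 542 CPM in immature neutrophils and 320 of 730 CPM in B cells. The part of this background in the early make-up of ctrl and vehicle cells was not tested. Il1b-high neutrophils differed from all other stages in that Stfa2l1 held the largest part in each group. Cstdc5 and Cstdc6 share 95.3% of their transcript, so a part of any shift between them could lie in the assignment of reads, and this was not tested.

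**Figure D4:**
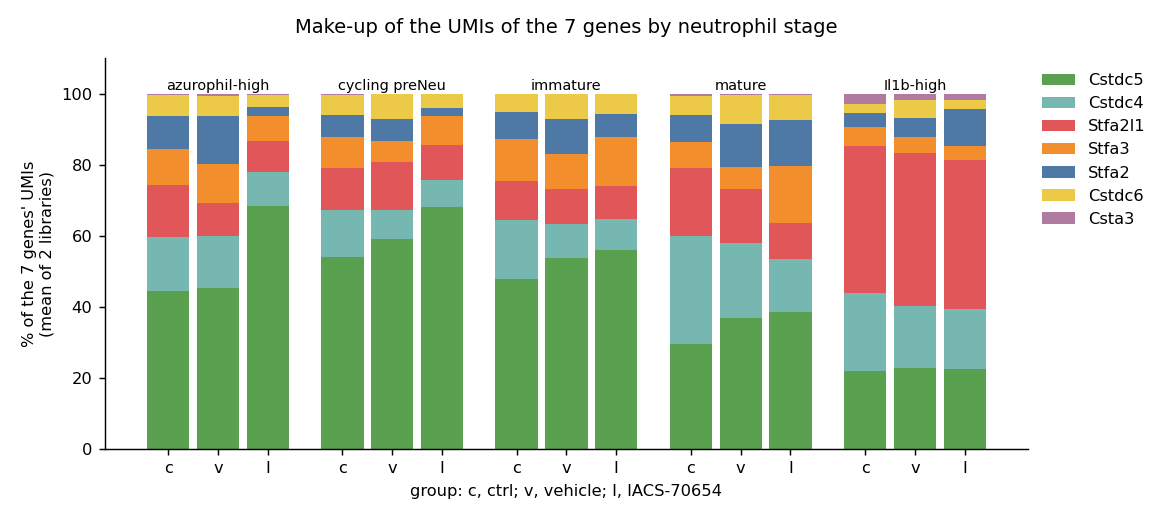
Share of each gene in the UMIs of the 7 genes by neutrophil stage and group (bars, mean of 2 libraries; c, ctrl; v, vehicle; I, IACS-70654). Cstdc5 (green) is the largest part except in mature ctrl cells, where Cstdc4 is slightly larger, and in Il1b-high neutrophils, where Stfa2l1 is the largest in all 3 groups. Azurophil-high precursors of ctrl and vehicle and immature ctrl cells were close to the level of B cells.

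In Lin-c-Kit+ BM the 7 genes were near absent. All 6 c-Kit+ libraries held 27 UMIs of the 7 genes in all, 18 of them Cstdc5 and 5 Cstdc4, with 1 each for Stfa2, Stfa3, Stfa2l1 and Cstdc6 and 0 for Csta3. The libraries held 0 and 2 UMIs in ctrl, 6 and 3 in vehicle, and 10 and 6 after IACS-70654, or 0 to 0.175 CPM, where 3 counts would stand for 0.0456 to 0.113 CPM. Cells of the granulocyte-monocyte progenitor (GMP) or proNeu class held 0 and 0, 1 and 1, and 4 and 2 UMIs, or 0 to 0.281 CPM. Mpo and Elane were among the markers that named this class, as they were for azurophil-high precursors of CD45+ BM. Those precursors held means of 210 CPM in ctrl, 296 CPM in vehicle and 1907 CPM with IACS-70654. The source of this difference between the sorts was not tested, and no step between the classes is read from it. None of the 7 passed the filter on low counts in any c-Kit+ class, so the IACS-70654, vehicle and ctrl groups could not be compared by edgeR's test there. Without that filter 19 tests could be made per comparison, of which 0, 0 and 1 had an unadjusted p under 0.05 (IACS-70654 against vehicle, vehicle against ctrl, IACS-70654 against ctrl) and 0 were called. Retnlg, a mature neutrophil transcript, held 0 to 4 UMIs per library in the GMP or proNeu class too, and Camp, an immature neutrophil granule gene, 5 to 32. Lcn2, a further granule gene, held 24 to 431.

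In the vehicle, IACS-70654 and anti-PD1 tumors most UMIs of the 7 genes lay in neutrophils, and in the combination tumor most lay outside them. The summed level in neutrophils was lower in each tumor than over all BM neutrophils of the vehicle libraries (3119 and 3102 CPM). The BM sums pool all stages, and BM and tumor cells were prepared differently. Tumor-associated neutrophils (TANs), defined by S100a8, S100a9, Cxcr2, Csf3r, G0s2 and Retnlg, held 1286 CPM of the 7 genes after vehicle (exact 95% Poisson interval 1198 to 1378; 471 cells), 1438 CPM after IACS-70654 (1319 to 1565; 247 cells), 1662 CPM after anti-PD1 (1574 to 1754; 554 cells) and 728 CPM after the combination (647 to 816; 309 cells). There was 1 library per condition, so these intervals cover counting error only and no test was made. The ratio to vehicle was 1.12 for IACS-70654 (interval 1.00 to 1.25), 1.29 for anti-PD1 (1.18 to 1.41) and 0.566 for the combination (0.494 to 0.648). With TMM scaling over the TAN sums the first ratio was 0.998, so no difference between TANs of vehicle and IACS-70654 tumors is read from it. The intervals are too narrow in a further way, since the TANs with the most of these UMIs (48 of 471 after vehicle, 25 of 247 after IACS-70654, 56 of 554 after anti-PD1 and 31 of 309 after the combination) held 80.4%, 78.2%, 79.0% and 79.7% of them.

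Cstdc4 led in TANs, at 553 CPM after vehicle, 683 CPM after IACS-70654, 642 CPM after anti-PD1 and 368 CPM after the combination. Stfa2l1 was at 309, 311, 360 and 225 CPM and Cstdc5 at 284, 282, 438 and 88.8 CPM, so Cstdc5 lay above Stfa2l1 after anti-PD1 only. Cstdc5 was thus not the leading copy in TANs of any condition. Stfa3 was at 11.3, 10.6, 31.3 and 2.47 CPM in TANs, which are 7, 4, 25 and 1 UMIs. In BM its ratio of IACS-70654 to vehicle was 19.9 in immature, 10.5 in mature and 0.996 in Il1b-high neutrophils. Which of these stages TANs resemble most was not tested. Cstdc6 gave 12, 1, 37 and 0 UMIs and Csta3 9, 9, 35 and 5 UMIs. The ratio of IACS-70654 to vehicle was 1.24 for Cstdc4 (exact 95% interval 1.05 to 1.46, and 0.935 to 1.30 with TMM scaling) and 0.138 for Cstdc6 (0.0032 to 0.931), and the intervals of the other 5 genes held 1. These intervals cover counting error between 1 library and another only. A UMI of any of the 7 was seen in 25.8%, 33.3%, 32.9% and 24.5% of TANs thinned to 1000 UMIs (29.7%, 35.2%, 35.7% and 24.9% without thinning).

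**Figure D5:**
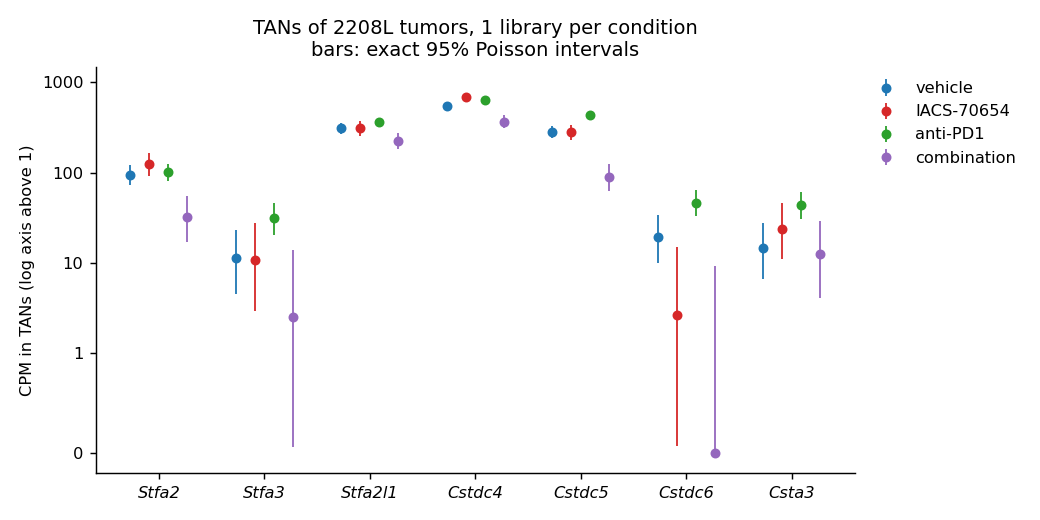
CPM of each gene in TANs (log axis above 1) of the 4 tumors, with exact 95% Poisson intervals. Cstdc4, Stfa2l1 and Cstdc5 are the highest genes in each tumor, and the combination is the lowest point for all 7 (Cstdc6 at 0 of 405323 UMIs, where 3 counts would stand for 7.40 CPM).

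TANs held 88.9% of the UMIs of the 7 genes after vehicle, 72.4% after IACS-70654, 93.7% after anti-PD1 and 28.4% after the combination. In the combination tumor the remaining 744 UMIs lay in few cells. A single cell of the tumor cell class held 275 of them together with 647 UMIs of S100a9, and the 3 highest cells held 61.2%. In the other 3 tumors the highest cell outside TANs held 22, 22 and 31 UMIs. Whether such barcodes held a neutrophil beside another cell was not tested.

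The wider protease and inhibitor network was read from lists of related genes in mature BM neutrophils. Of the other type 1 stefins, 4 of 7 were measured, and 1 was higher in vehicle than in ctrl: Stfa1, the copy most like Cstdc5, with a log2 change of 1.26 ± 0.17 (edgeR adjusted p = 9.91e-12). After IACS-70654 2 of the 4 were higher than vehicle, Csta2 (2.04 ± 0.47) and Stfa1 (1.15 ± 0.09). The transcript of Stfa1 is 97.1% identical to that of Cstdc5, and that of Csta2 95.4% identical to that of Cstdc4. Reads of Cstdc5 and Cstdc4 could therefore enter the counts of Stfa1 and Csta2, which was not tested. Of the cysteine cathepsins and legumain, the proteases that stefins or cystatins block, 9 of 11 were measured, and 4 were higher and 0 lower in vehicle than in ctrl, among them Lgmn, the asparaginyl endopeptidase (1.26 ± 0.37), Ctsb, cathepsin B (0.93 ± 0.07), and Ctss, cathepsin S (0.59 ± 0.14). After IACS-70654 3 were higher than vehicle and 0 lower: Ctsc, the activator of neutrophil serine proteases (0.78 ± 0.05), Ctso (0.67 ± 0.19) and Ctss (0.51 ± 0.09). The medians of the cathepsin list were 0.56 and -0.07 in these comparisons. Of all genes tested at this stage 5.05% were higher and 3.83% lower in vehicle than in ctrl, with a median of -0.0019, and 11.5% were higher and 8.47% lower after IACS-70654 than after vehicle, with a median of 0.0053. None of the 2 secreted cystatins measured of 13 and none of the 4 neutrophil serine proteases was called in either.

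Of 18 other protease inhibitors 9 were measured. In vehicle 4 were higher than in ctrl and 2 lower, with the largest changes in Thbs1, thrombospondin 1, a matrix protein that also inhibits neutrophil elastase (-4.51 ± 0.11), Wfdc17 (3.52 ± 0.03) and Wfdc18 (2.97 ± 0.29), both whey acidic protein domain genes. After IACS-70654 1 was higher than vehicle and 3 lower, led by Thbs1 (4.20 ± 0.10), Serpinb2 (-1.90 ± 0.19) and Slpi, the secretory leukocyte protease inhibitor (-0.56 ± 0.03). In c-Kit+ cells of the GMP or proNeu class, in which the 7 genes were near 0, the genes lower after IACS-70654 than after vehicle included Cst7, cystatin F (-1.70 ± 0.04), Prss57 (-0.70 ± 0.04), Ctsh (-0.97 ± 0.23), Serpinb2 (-3.79 ± 0.62), Wfdc21 (-1.80 ± 0.05) and Wfdc17 (-1.28 ± 0.16), and Ctss (1.44 ± 0.29) was higher, each called by edgeR. There, 1 of 10 other inhibitors was higher and 4 lower, and Wfdc17 (1.83 ± 0.29) and Wfdc21 (1.82 ± 0.07) were higher in vehicle than in ctrl. The shares of all genes called in that class were 3.14% higher and 4.07% lower after IACS-70654 than after vehicle, and 0.794% higher and 0.727% lower in vehicle than in ctrl.

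Over the 30 sums of 5 neutrophil stages in 6 libraries, the 7 genes followed each other with a median Pearson correlation of log2 CPM of 0.87 over 21 pairs (0.56 to 0.97). Among 10341 other genes, those most like their mean were Stfa1 (0.87), Tecpr1, which takes part in autophagy (0.86), Hopx, a homeodomain-only protein (0.84), Tuba1a, an alpha-tubulin (0.82), and Gda, guanine deaminase (0.80). Stfa1 stood at 5.94 CPM in mature ctrl, 12.7 CPM in mature vehicle and 33.0 CPM in mature IACS-70654 neutrophils, and at 0.622, 2.79 and 28.0 CPM in immature ones. Reads of Cstdc5, its near copy, could enter the count of Stfa1, which was not tested. The other genes named changed less, and Gda was at 962, 1022 and 1079 CPM in mature neutrophils. The 30 points share libraries and cells and include the IACS-70654 and vehicle libraries whose difference chose the 7 genes, so high correlations among them follow in part from that choice and all are given as descriptions.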

How the data were processed

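Per the labels and methods, CD45+Ter119- and Lin-c-Kit+ BM cells and 2208L tumors were sequenced by the 10x 3' assay with CellPlex tags, and the authors aligned and counted reads with Cell Ranger on mm10 and deposited raw UMI counts per gene and cell. Cells were kept here with over 200 and under 6000 genes and at most 10% mitochondrial UMIs. Tags remove doublets between samples. No doublet caller was run, so doublets within a sample may remain. Cells were clustered per sort (Leiden, neutrophils on expression centred per library) and named from marker lists. Counts were summed per library and class with at least 20 cells in each library and tested in edgeR 4.0.16 (filterByExpr, TMM, glmQLFTest) over all 6 libraries of a sort. The test was also run on simulated counts, and the outcome is not given here. Alternatives were RLE or library-total scaling, DESeq2 1.42.0, no filter, a replicate block, leaving out each library, at least 1000 UMIs per cell, uncentred clustering and a single neutrophil class. Shares were taken after thinning to 1000 UMIs. Tumor ratios carry exact conditional binomial intervals for counting error only.

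The 7 genes and all gene lists were chosen with earlier results of these data known. Named genes were the 7, the up to 3 called genes of each list with the largest change in mature neutrophils or GMP, and the 5 nearest by correlation. Coordinates and promoters are from RefSeq (GRCm38.p6), and strands and transcript sequences from GENCODE vM21, matched by Ensembl ID.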

Additional observations from a re-analysis of the deposited data

Results flagged for a closer look

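In 3 cases the groups of a contrast did not overlap in the CPM of a gene, in opposite directions at different stages. How many of all genes did so was not counted, so nothing is read from the number of cases. Whether the stages differ was not tested in any of them. Cstdc6 was lower after IACS-70654 than after vehicle in Il1b-high neutrophils (log2 change -0.85) and higher at the other 4 stages. Cstdc4 was at a lower CPM in vehicle than in ctrl in mature neutrophils and higher in immature ones (log2 change 0.83). Its TMM log2 change in mature neutrophils, -0.050, was not called. With library totals in place of TMM, the median of all genes there moved by -0.17, so no fall of Cstdc4 is read. Csta3 was lower in vehicle than in ctrl in mature neutrophils (-0.38) and at a higher CPM in azurophil-high precursors, where it had 1 to 5 UMIs in each of these libraries and was not fitted.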

How the results depend on the processing

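Over the alternatives that refit each stage, 12 to 18 of 34 tests of a gene at a stage were called higher in vehicle than in ctrl (16 as reported; 12 with DESeq2). The count was 26 to 33 after IACS-70654 against vehicle (27 with edgeR and TMM) and 28 to 33 against ctrl (28 with edgeR and TMM, a comparison the report does not describe). Nothing is read from the last 2 ranges, since the response to IACS-70654 chose the genes. Without each library in turn the 3 counts were 14 to 17, 26 to 27 and 28 to 29. These fits leave 1 library in a group, which is assumed to vary like the others. With the replicate number as a block they were 16, 27 and 28. Same-numbered libraries did not deviate together (correlations of -0.06 to 0.08), so the numbers were not taken to pair samples, and for vehicle against ctrl the block removed the call of Cstdc4 in cycling preNeu (0.56) and added that of Cstdc5 in azurophil-high precursors (0.59). It changed no other call of the 7 genes in the 2 comparisons with vehicle. In c-Kit+ classes 0 calls were made in every fit.

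The signs of the following log2 changes turned. For IACS-70654 against vehicle in Il1b-high neutrophils, Stfa3 was at 2.12 without centring and 3.13 with all neutrophils as a single class, and Cstdc6 at 1.19 and 1.66. Without each library in turn the ranges there were -0.26 to 0.14 for Stfa3, -0.026 to 0.098 for Stfa2l1, -0.0043 to 0.052 for Cstdc4, -0.054 to 0.16 for Cstdc5 and -0.27 to 0.38 for Csta3. For vehicle against ctrl, clustering without centring gave -0.066 for Cstdc6 in azurophil-high precursors, -0.39 for Csta3 in cycling preNeu and -0.19 for Stfa2l1 in mature neutrophils. Library totals gave -0.029 for the last. A single class gave 0.61 for Stfa2l1 (azurophil-high), 0.34 for Cstdc4 (mature) and 0.078 for Csta3 (mature and Il1b-high). Leaving out libraries gave -0.52 to 0.27 for Stfa2l1 and -0.17 to 1.04 for Cstdc4 in azurophil-high precursors, -0.074 to 0.55 for Csta3 in cycling preNeu, and -0.22 to 0.65 for Stfa3, -0.017 to 0.14 for Cstdc4 and -1.08 to 1.44 for Csta3 in Il1b-high neutrophils. The causes were not tested, except that a single class mixes stages.

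With TMM scaling the ratio of IACS-70654 to vehicle in TANs was 0.998. The mean share of mature neutrophils with a UMI moved by construction, to 56.8%, 61.7% and 89.0% (ctrl, vehicle, IACS-70654) for at least 2 UMIs, 83.4%, 84.5% and 97.7% at 2000 UMIs and 91.8%, 93.9% and 98.2% without thinning, in the same order each time.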
